A study of Mus musculus with 12 samples.

Results

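Notum and the antisense long noncoding RNA Notumos are a pair of transcripts that overlap head to head on mouse chromosome 11, and each was measured by 1 probe on a combined lncRNA and mRNA microarray. The probes are ASMM10LNC1A100030691V4 for Notumos and ASMM10AP1B124994511V4 for Notum, 2 of the 60641 probes in the deposited table. The pair was chosen by its values in these data. In cells without Oct4 knockdown, both probes read lower with POVPC than with DMSO once the arrays were brought to a common scale. That comparison is therefore described below with no test, and nothing is supported with it.

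Notum is a secreted carboxylesterase. It removes the palmitoleate group that Porcn places on Wnt proteins, and a Wnt without this lipid no longer activates its Frizzled receptors. Notum is itself induced by canonical Wnt signaling in several tissues and so acts as a feedback inhibitor. It is held near the cell surface by glypicans. Notumos is a noncoding transcript on the opposite strand, and no function of it is assumed here. In smooth muscle cells (SMC), Wnt signaling takes part in proliferation, migration and the switch away from the contractile state.

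The cells were primary mouse aortic SMC (MASMC), a bulk culture. All of them were transfected for 48 h in serum-free medium with siRNA and then treated for 24 h. The siNT groups received a non-target pool and the siOCT4 groups received siRNA against Oct4 (Pou5f1), a pluripotency factor that has also been studied in SMC. POVPC, an oxidized phospholipid found in atherosclerotic lesions, was given at 10 µg/mL, and DMSO was the vehicle. Each siRNA was combined with each treatment, which made 4 groups of 3 arrays, named by siRNA and then treatment (siNT-DMSO, for instance). Nothing in the sources used here says that the 3 came from separate cultures or animals, so the p-values measure only the spread between these samples, which may be technical. In a bulk sample, fewer cells of a type and less RNA per cell cannot be told apart.

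On each array between 49015 and 55326 probes were flagged well above background by the scanner software. No array had a saturated probe. The scan records of the arrays gave 2 scans. The first held all 6 siNT arrays and siOCT4-DMSO 1 and 2, and the second held siOCT4-DMSO 3 and the 3 siOCT4-POVPC arrays. POVPC in the Oct4 knockdown cells is therefore compared almost entirely between scans, with siOCT4-DMSO 3 as the only vehicle array of the second scan. No probe could be named for Oct4, and the level of the siRNA's target was therefore not checked here. Of 6 SMC markers, 2 had a named probe. Smtn (smoothelin, a contractile cytoskeleton protein) was well above background on 12 of 12 arrays and Tagln (transgelin, SM22α) on 11. Both were dim, with background-corrected signals of 20.5 to 44.9 for Smtn and 10.6 to 42.4 for Tagln. The median probe read 68.7 or more on every array, so the flag says little about the identity of the cells. None of the 4 endothelial or 4 macrophage markers had a named probe, and of 3 fibroblast markers only Pdgfra had one, which was well above background on 9 arrays.

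The Notum transcript (ENSMUST00000106178) is a minus-strand transcript of chromosome 11 that spans 120653788 to 120660829, in the coordinates that the study lists for the array, and its spliced RNA is 2012 bases long. Notumos (ENSMUST00000151998) lies on the plus strand from 120659157 to 120661815. Its listed RNA length, 2659 bases, equals the length of its span, and the study lists it as a natural antisense transcript. Their genomic spans overlap by 1673 bases, a count over the genome and not over spliced RNA. This overlap holds the start of Notum, and Notumos runs 986 bases past it. In RefSeq (GRCm38.p6) the Notum gene extends to 120661193, which still leaves Notumos 622 bases longer on that side. The nearest RefSeq genes on either side are Myadml2 and Aspscr1, and neither overlaps the pair.

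**Figure D1:**
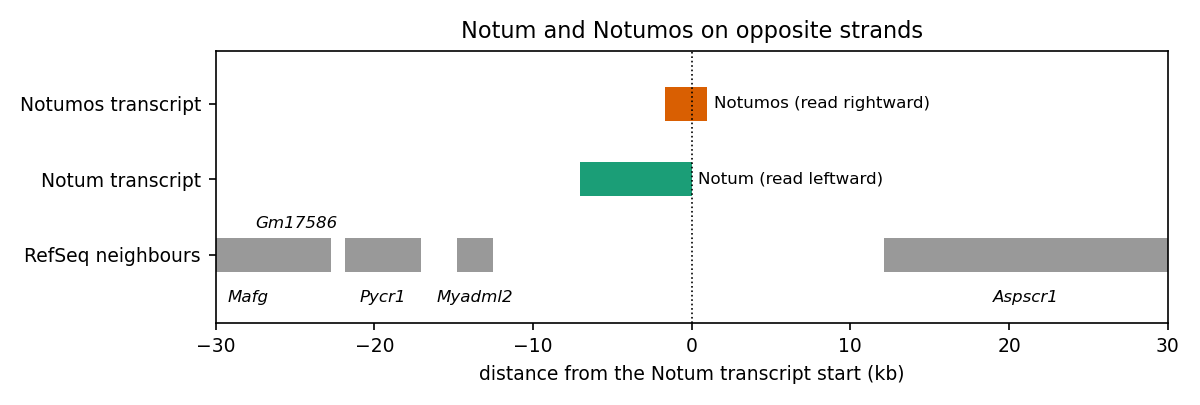
Map of the region with distance from the start of the Notum transcript in kb on the x axis and 1 row each for Notumos, Notum and the neighbouring RefSeq genes, of which Mafg and Gm17586 overlap at the left edge. Notumos covers the Notum start, reaching from -1.67 to 0.99 kb, while the nearest neighbours end at -12.49 kb and begin at 12.14 kb.

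The Notum probe is 60 bases long with a GC content of 68.3%. Its positions 31 to 60 are shown, as the study lists them, so that the stretch behind the Notum values can be identified. Capitals mark the only ATG of the probe, which begins at position 42.

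Notum probe, positions 31 to 60: gtgacattgccATGggaggagaggtgcgcg

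The probe was not placed on the genome here, so whether it lies in the stretch shared with Notumos was not tested. The sequence of the Notumos probe was not used here. The Notumos probe was tied to its transcript through the antisense table of the study, where it was the only probe of the array whose values gave the listed test.

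Both probes were dim. The processed signal is the background-corrected intensity of a spot, and on these arrays the 308 negative control spots had a median processed signal between 1.88 and 3.01. Notumos read between 3.61 and 27.8 and was well above background on 5 of 12 arrays. Notum read between 8.64 and 35.9 and was well above background on 11 of 12. The scanner's own error was 12.6% to 63.0% of the Notumos signal and 11.8% to 27.8% of the Notum signal. For levels as low as these, the way the arrays are brought to a common scale weighs on any comparison, so the signals before scaling are given first.

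Notumos had processed signals of 13.8, 27.8 and 19.9 on the 3 siNT-DMSO arrays, all well above background. On the siNT-POVPC arrays it read 10.3, 11.7 and 13.1, and none of these was well above background. All 3 siNT-POVPC arrays lay below all 3 siNT-DMSO arrays, as they did for 0.378% of all tested probes on this scale. In the Oct4 knockdown cells it read 5.39, 14.0 and 16.3 with DMSO, of which the last 2 were well above background. With POVPC it read 3.61, 6.37 and 10.2, none of them well above background. These groups overlapped, since siOCT4-DMSO 1 read lower than 2 of the POVPC arrays. Notumos was thus flagged on DMSO arrays only, on 5 of 6 of them. In the siNT cells this split is in part fixed by the choice of the pair. The flag turned on small differences, as 13.8 on siNT-DMSO 1 was flagged and 13.1 on siNT-POVPC 3 was not. The siOCT4-POVPC arrays also flagged fewer probes in all (49015 to 49472) than the siOCT4-DMSO arrays (51223 to 52445). How many probes share this split was not counted.

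Notum had processed signals of 26.8, 34.7 and 27.9 on the siNT-DMSO arrays and of 35.9, 22.2 and 28.4 on the siNT-POVPC arrays. These groups overlapped, and their means were 29.8 ± 4.28 and 28.8 ± 6.87 (SD, n = 3). The Oct4 knockdown arrays read 17.6, 17.3 and 15.5 with DMSO and 8.64, 14.3 and 16.4 with POVPC, and here siOCT4-POVPC 1 was the single array not well above background. On this scale all 6 siOCT4 arrays, at most 17.6, lay below all 6 siNT arrays, at least 22.2. Without overlap, siOCT4-DMSO was below siNT-DMSO for 5.3% of all tested probes, and siOCT4-POVPC below siNT-POVPC for 61.5%. The second separation was therefore common to most probes of the arrays.

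**Figure D2:**
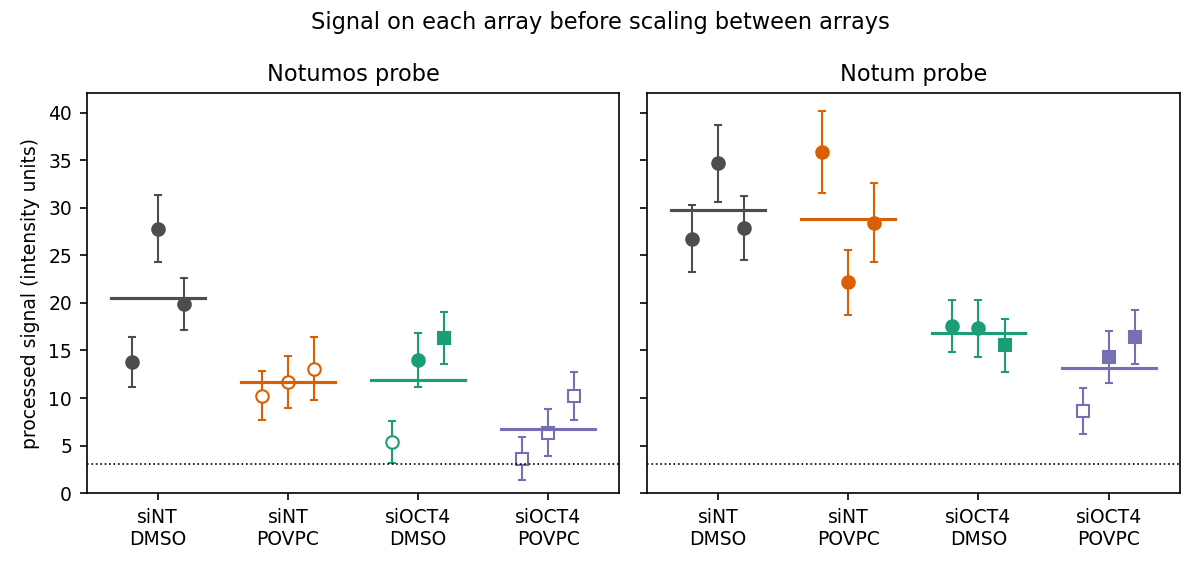
Processed signal in intensity units of the Notumos and Notum probes on each of the 12 arrays, with bars for the scanner's error, a line at each group mean, filled symbols for arrays where the probe was well above background, squares for the second scan, and a dotted line at the highest negative control median, 3.01. Filled Notumos symbols occur only in the DMSO groups, a split in part fixed by the choice of the pair. Before scaling Notum separates the siNT from the siOCT4 arrays. After quantile normalization it does not, with siNT at 3.96 or more and siOCT4 at up to 4.42.

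The arrays as a whole also differed in brightness. The 25th percentile of the processed signal was 22.9 to 23.9 on the siNT-DMSO arrays and 28.5 to 39.9 on the siNT-POVPC arrays. It was 23.7 to 24.8 with siOCT4-DMSO and 17.3 to 19.2 with siOCT4-POVPC. POVPC arrays were brighter than their vehicle arrays at this level in the siNT cells and dimmer in the siOCT4 cells. Whether this reflects the RNA, the labeling or the scan was not tested.

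After quantile normalization, which gives every array the same distribution of signals, Notumos had log2 signals of 3.79, 4.90 and 4.40 with siNT-DMSO. It had 2.72, 3.26 and 2.52 with siNT-POVPC, all below the vehicle arrays. The log2 difference was -1.53 (standard error 0.45). As no siNT-POVPC array measured the probe above background, the size is given as a bound for the dim readings. On the quantile normalized scale this bound was 2.64-fold higher with DMSO. It takes no account of the spread between arrays, so the fold can be smaller. The lowest DMSO array (3.79) stood closer to the highest POVPC array (3.26), and a floor of 20 gave a log2 difference of -0.192. The same bound was 2.33-fold with 75th percentile scaling, and the mean processed signals before scaling were 20.5 and 11.7. The bound sets the mean of the bright group against, for each dim array, the higher of the probe's own value and the lowest value among probes well above background. In the same comparison Notum had 4.77, 5.24 and 4.91 with DMSO and 4.62, 4.24 and 3.96 with POVPC, again with no overlap, and a log2 difference of -0.71 (standard error 0.22). On this scale 10.4% of all tested probes had every siNT-POVPC array below every siNT-DMSO array. These are the values by which the pair was chosen. Without any scaling between arrays the Notum difference was -0.06 (standard error 0.26), and the Notumos difference was -0.76 (standard error 0.41).

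The comparison whose arrays took no part in choosing the pair is POVPC against DMSO in the Oct4 knockdown cells. Notumos had log2 signals of 2.60, 3.85 and 4.08 with DMSO and of 2.44, 3.33 and 3.85 with POVPC. The groups overlapped, with means of 3.51 ± 0.80 and 3.20 ± 0.71 (SD, n = 3). The log2 difference was -0.31 (standard error 0.45, 95% interval -1.30 to 0.69), and it did not pass the test (adjusted p = 0.793 from limma over all tested probes, exact two-sided permutation p = 0.5). No POVPC array measured the probe above background, and a bound on the fold could not be set because it came to less than 1. The probe reached the 3 arrays needed for testing only with siNT-DMSO arrays, on which it was chosen to be high, as 2 siOCT4 arrays measured it, so the test says little about Notumos in these cells.

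Notum in the same cells had log2 signals of 4.11, 4.16 and 4.01 with DMSO and of 3.75, 4.29 and 4.42 with POVPC. The DMSO arrays lay within the range of the POVPC arrays. The log2 difference was 0.06 (standard error 0.22, 95% interval -0.43 to 0.56), and it did not pass either (adjusted p = 0.927 from limma, exact two-sided permutation p = 0.8). With only the groups compared in the fit, the standard error was 0.21 (adjusted p = 0.906 from limma). With 3 arrays a group the permutation test cannot give a p below 0.1. The interval leaves room for a fall as well as a rise, so the test does not show that Notum was the same in both groups. Its direction turned with the scaling, to -0.25 with the 75th percentile of each array and to -0.41 with no scaling, and neither value passed. The limma test called 1 of 54506 probes (0.00183%) in this comparison, with an adjusted p under 0.05 and a fold of at least 1.5, and it was neither of the pair. This count depended strongly on the processing and was 21 with 75th percentile scaling, 1153 with no scaling and 5105 with the scan as a block. The probe called, ASMM10AP1B111500473V4, has no name here and was singled out only because it was the one called. Within the second scan, where siOCT4-DMSO 3 is the only vehicle array, the differences were -0.88 for Notumos and 0.14 for Notum.

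**Figure D3:**
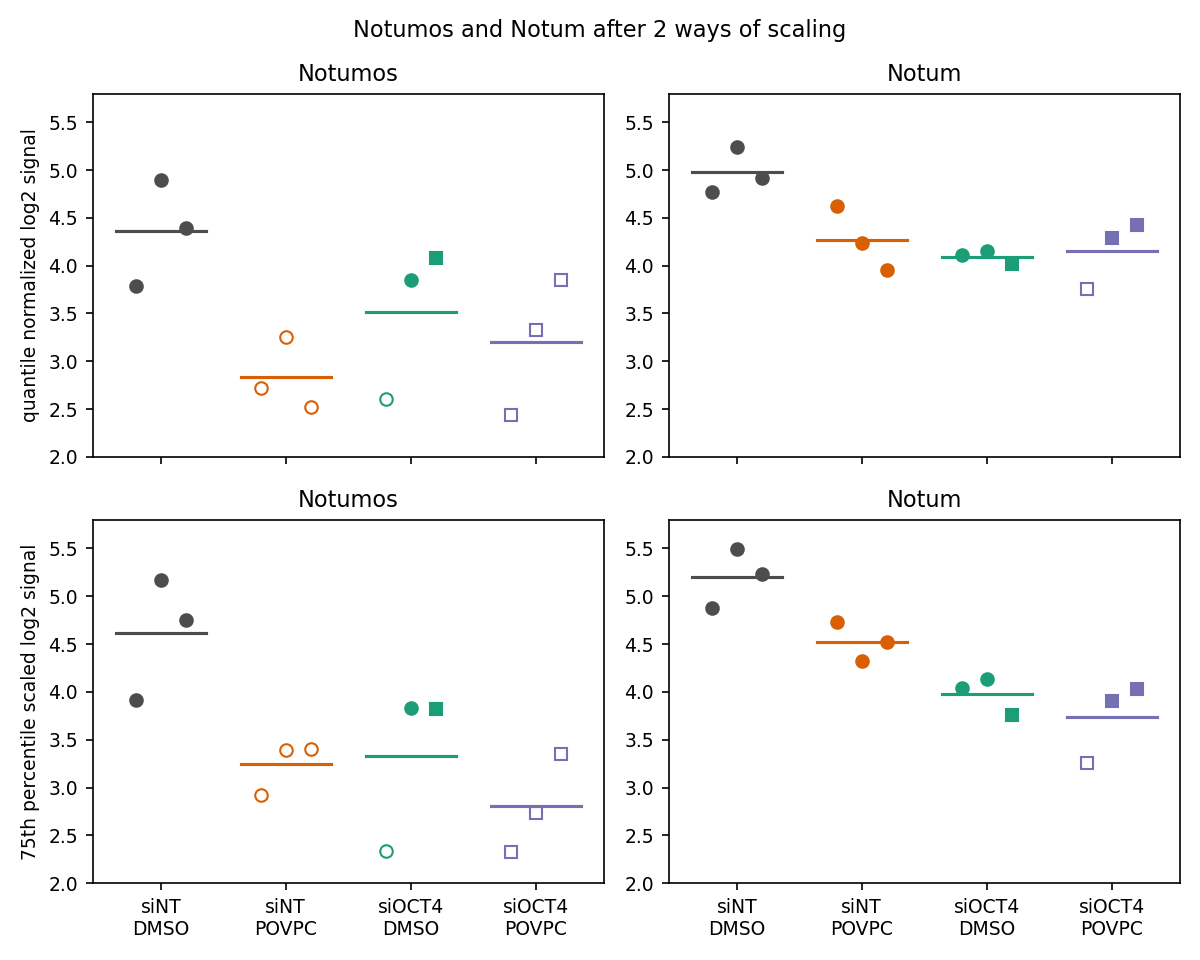
Log2 signal of Notumos and Notum on each of the 12 arrays after quantile normalization (top) and after scaling each array to its 75th percentile (bottom), with symbols as in the plot of unscaled signals and a line at each group mean. The 3 siNT-DMSO arrays are the highest for Notum on both scales, at 4.77 or more after quantile normalization, while the siOCT4 groups overlap each other.

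The effect of the Oct4 siRNA in vehicle-treated cells is described without a test, because it uses the siNT-DMSO arrays on which the pair was chosen to be high. Notum was lower on every siOCT4-DMSO array (4.01 to 4.16) than on every siNT-DMSO array (4.77 to 5.24). Such a separation downward held for 13.6% of all tested probes. The log2 difference was -0.88 (standard error 0.22), which is a signal 1.85-fold lower. Notumos differed by -0.85 (standard error 0.45) and its groups overlapped, since 2 of the siOCT4-DMSO arrays lay above siNT-DMSO 1. The median over all tested probes was -0.06 with quantile normalization and -0.21 with 75th percentile scaling, and on the latter scale the differences were -1.22 for Notum and -1.28 for Notumos. Within the first scan alone, where siOCT4-DMSO had 2 arrays, the differences were -0.84 for Notum and -1.14 for Notumos. With single arrays left out, the quantile normalized difference of Notum ran from -0.99 to -0.75 and that of Notumos from -1.14 to -0.40, the smallest without siOCT4-DMSO 1.

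With POVPC present, Notumos was not well above background on any of the 6 arrays, so no difference between siOCT4 and siNT is read from it. The Notum difference depended on the scale and on single arrays. After quantile normalization it was -0.11 (standard error 0.22), with overlapping groups, and it ran from -0.27 without siNT-POVPC 3 to 0.09 without siOCT4-POVPC 1, with 0.06 without siNT-POVPC 1. After 75th percentile scaling, which moved the median of all tested probes to -0.27, it was -0.79 (standard error 0.24). On that scale Notum read 4.32 to 4.73 with siNT-POVPC and 3.26 to 4.03 with siOCT4-POVPC, and 39.4% of all tested probes were likewise separated downward. Each siOCT4-POVPC array came from the second scan and each siNT-POVPC array from the first, and with the scan as a block, which rests on the siOCT4-DMSO arrays of both scans, the Notum difference was 0.005 (standard error 0.41).

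The response to POVPC in siOCT4 cells minus that in siNT cells was 0.77 (standard error 0.32) for Notum on the quantile normalized log2 scale, and ran from 0.61 to 0.97 with single arrays left out. It shares the siNT arrays that chose the pair, so it is a description with no test. With no scaling between arrays it came to -0.34 (standard error 0.36). None is read for Notumos, which no POVPC array measured above background.

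**Figure D4:**
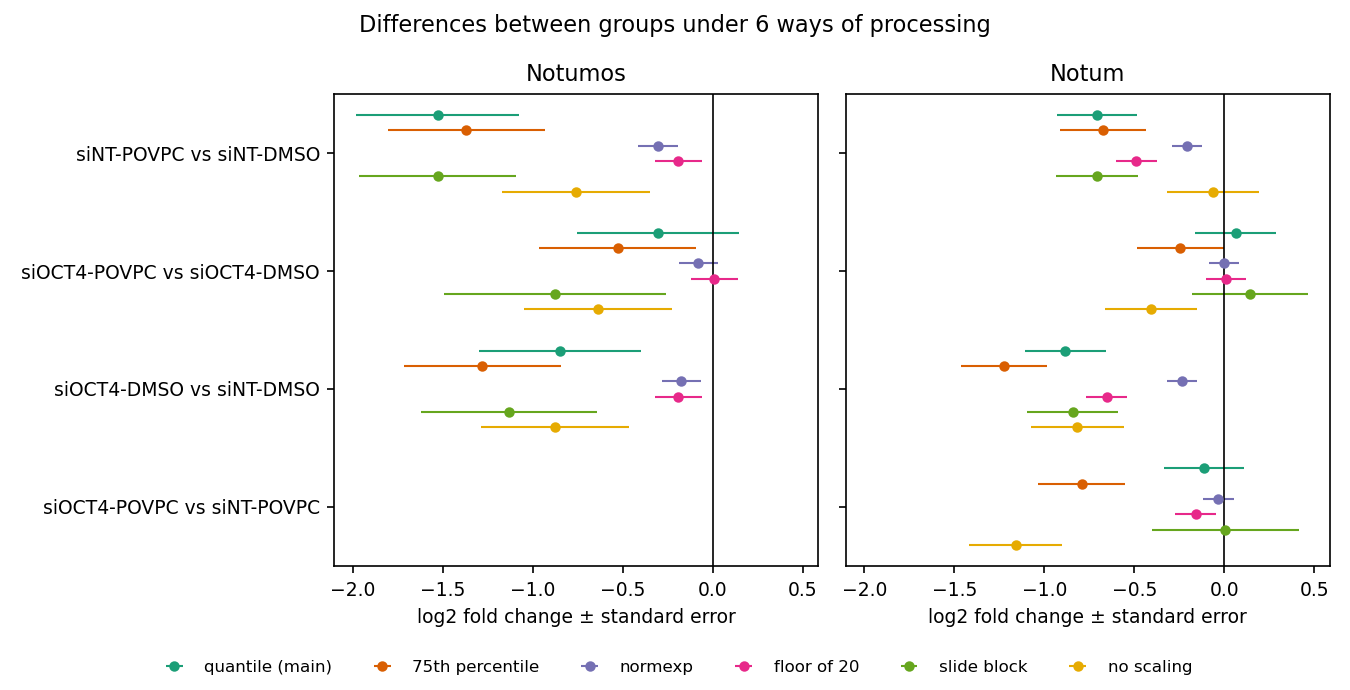
Log2 fold change with its standard error, on the x axis, of Notumos and Notum in 4 comparisons (rows) under 6 ways of processing (colours), without the comparison in which no array measured Notumos above background. The siOCT4-DMSO values of Notum lie left of 0 in all 6, from -1.22 to -0.235, while its value in siNT-POVPC against siNT-DMSO is -0.06 with no scaling, and those in siOCT4-POVPC against siOCT4-DMSO fall on both sides of 0.

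Across the 12 arrays the quantile normalized signals of Notumos and Notum had a Pearson r of 0.71 and a Spearman rho of 0.64. This is a description only, since the pair was chosen to fall together in 2 of the groups and the arrays share those groups. Over the 6 siOCT4 arrays, which took no part in the choice, r was 0.53 (exact permutation p = 0.292, adjusted p = 0.584) and rho was 0.26 (exact permutation p = 0.658, adjusted p = 0.658), adjusted over these 2 relations. Without the 2 arrays farthest from the median of Notumos, r was -0.52 over 4 arrays. With 75th percentile scaling r was 0.43 over the 6 arrays (exact permutation p = 0.418) and 0.51 over the 4 left, so the sign over 4 arrays turned with the scaling. On 4 of these 6 arrays Notumos was not well above background, so r and rho rest mostly on readings near background and no relation is read from them.

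Of the 98 Wnt pathway genes listed for this work, 5 had a probe that could be named, Notum among them. Those names come from tables of transcripts that the study picked for a change between siNT-POVPC and siNT-DMSO, so their values in that comparison are no independent evidence of a direction. The other 4 are the receptor Fzd2, the glypican Gpc2, the scaffold Dvl1, which relays the signal from Frizzled, and the target gene Myc. In siNT cells with POVPC the log2 differences were 1.06 (standard error 0.37) for Fzd2, 1.28 (standard error 0.30) for Gpc2, 0.62 (standard error 0.17) for Dvl1 and -1.40 (standard error 0.39) for Myc.

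In the siOCT4 cells, where the test applies, 0 of these 4 genes passed for POVPC against DMSO (limma), where 1 of 54506 probes (0.00183%) passed in all. Fzd2 differed by 0.41 (standard error 0.37, adjusted p = 0.64), Gpc2 by 0.15 (standard error 0.30, adjusted p = 0.855) and Dvl1 by 0.04 (standard error 0.17, adjusted p = 0.943). Myc differed by -0.55 (standard error 0.39, adjusted p = 0.555). Their median was 0.10, beside -0.01 over all tested probes. Among all tested probes 4905 had an unadjusted p under 0.05 with a fold of at least 1.5.

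Between siOCT4-DMSO and siNT-DMSO the same genes differed by 0.51 for Fzd2 (standard error 0.37), 1.04 for Gpc2 (standard error 0.30), 0.25 for Dvl1 (standard error 0.17) and -0.75 for Myc (standard error 0.39). Their median was 0.38, beside -0.06 over all tested probes. With 75th percentile scaling the differences were 0.69 for Fzd2, 1.2 for Gpc2, 0.02 for Dvl1 and -0.98 for Myc. These values share the siNT-DMSO arrays with the comparison for which the study picked the genes, so their signs are in part fixed by that choice. Gpc2 had group means of 12.05 ± 0.52 with siNT-DMSO and 13.09 ± 0.27 with siOCT4-DMSO (SD, n = 3), and Myc had 6.17 ± 0.43 and 5.42 ± 0.69. Between siOCT4-POVPC and siNT-POVPC, which also differ by scan, the differences were -0.13 for Fzd2, -0.09 for Gpc2, -0.33 for Dvl1 and 0.11 for Myc. With 75th percentile scaling the value of Myc turned to -0.36. The median of the 4 genes was -0.11 as quantile normalized, beside -0.08 over all tested probes. These values share the siNT-POVPC arrays with the comparison for which the study picked the genes. All 4 genes were well above background on 12 of 12 arrays. Wnt ligands, Porcn, the R-spondins and the other secreted inhibitors had no named probe and were not analysed here.

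The named cell markers are given beside these values. They too could be named only because the study listed them for siNT-POVPC against siNT-DMSO, and the comparisons that share these arrays are in part fixed by that choice. Tagln differed by -0.88 (standard error 0.19) with POVPC in siNT cells and by -0.79 (standard error 0.19) with the Oct4 siRNA in vehicle. Smtn differed by -0.73 (standard error 0.23) and -0.55 (standard error 0.23). Pdgfra, a receptor of mesenchymal cells, differed by -0.83 (standard error 0.24) with POVPC in siNT cells and by 0.70 (standard error 0.24) with the Oct4 siRNA in vehicle, where 75th percentile scaling gave 0.28. It was well above background on 2 of 3 siNT-DMSO arrays and 1 of 3 siNT-POVPC arrays, so its differences rest in part on readings near background. Between siOCT4-POVPC and siNT-POVPC, the groups that differ by scan as well, it differed by 1.73 (standard error 0.24) and by 0.99 with 75th percentile scaling. There Tagln differed by -0.35 (standard error 0.19) and by -0.97 with 75th percentile scaling, and Smtn by 0.39 (standard error 0.23) and, with its direction turned, by -0.10. In siOCT4 cells with POVPC the values were -0.44 for Tagln (adjusted p = 0.354 from limma), 0.21 for Smtn (adjusted p = 0.707) and 0.20 for Pdgfra (adjusted p = 0.734). With 75th percentile scaling they were -0.75 for Tagln, 0.02 for Smtn and, with its direction turned, -0.04 for Pdgfra. Smtn and Tagln were dim as well. Before scaling Tagln read 10.6 to 15.6 with siOCT4-POVPC, where it was not well above background on siOCT4-POVPC 1. The part of a shift in these cells' state in the Notum values was not tested.

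Within 200 kb of Notum, 4 other transcripts had a named probe, all of them on the same side. Mafg, which encodes a small Maf transcription factor, ends 20.2 kb away and had lower means with POVPC with either siRNA. Its log2 signals in the siOCT4 cells were 11.72, 12.23 and 12.66 with DMSO and 11.35, 11.32 and 11.47 with POVPC. The difference was -0.82 (standard error 0.26), and it did not pass the test (adjusted p = 0.274 from limma). In siNT cells it was -0.86 (standard error 0.26), the comparison for which the study had listed it.

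Pcyt2 (35.9 kb away), an enzyme of phosphatidylethanolamine synthesis, differed by 0.73 (standard error 0.31, adjusted p = 0.351) in siOCT4 cells. Slc25a10 (154.6 kb away), the mitochondrial dicarboxylate carrier, differed by 0.57 (standard error 0.27, adjusted p = 0.391). A noncoding transcript at Arl16 (186.3 kb away) differed by 0.74 (standard error 0.25, adjusted p = 0.288). Of the 4 neighbours 0 passed in siOCT4 cells, beside 0.00183% of all tested probes, and 3 had a positive difference and Mafg a negative one. In siNT cells with POVPC their differences had the same signs, at 0.93 for Pcyt2, 0.61 for Slc25a10 and 1.08 for the transcript at Arl16. In the siOCT4 cells Notum stood at 0.06 and Notumos at -0.31, and the difference between the pair and these neighbours was not tested.

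**Figure D5:**
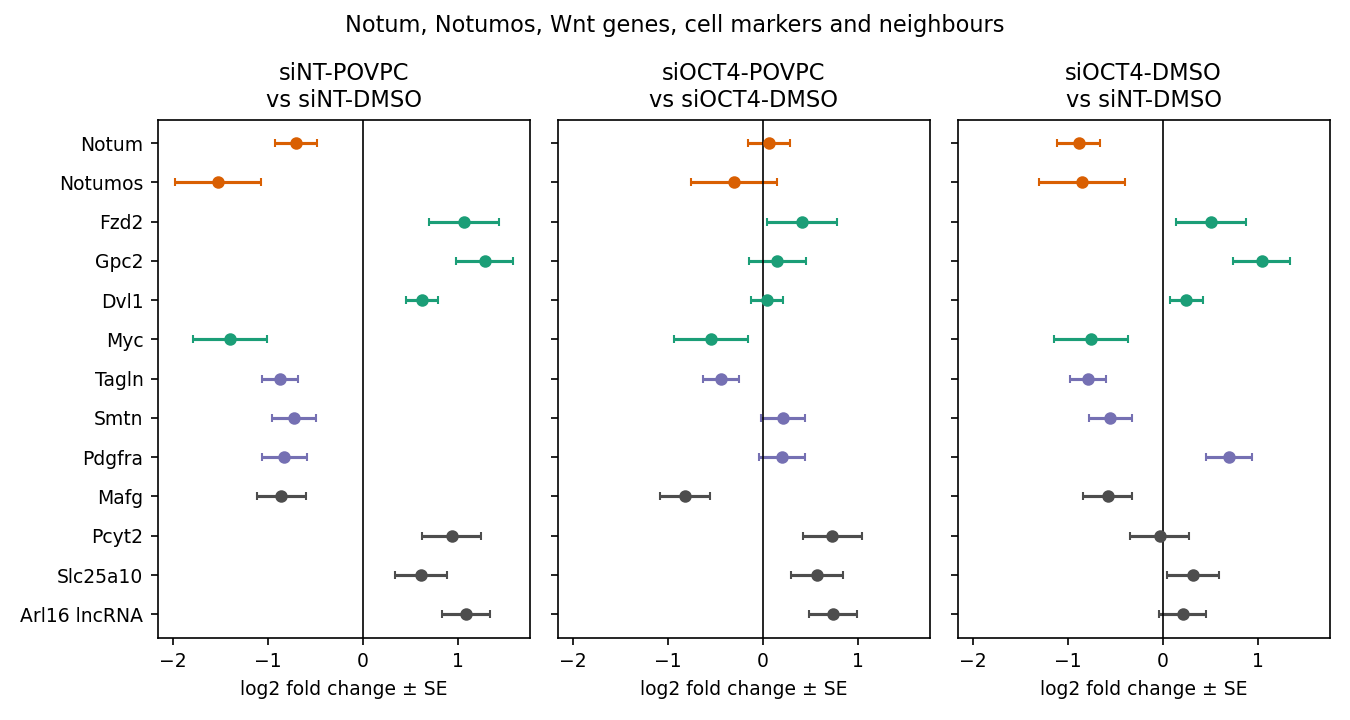
Log2 fold change with its standard error (x axis) of Notum and Notumos (orange), the named Wnt genes (green), cell markers (purple) and neighbours within 200 kb (grey) in 3 comparisons. Notum lies at -0.71 and -0.88 in the comparisons that use siNT-DMSO and at 0.06 in the siOCT4 cells, while Mafg lies at -0.86, -0.58 and -0.82.

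The named probes with the pattern most like each of the pair were found by Pearson r of the quantile normalized signal over the 12 arrays, which fall into 4 groups. All named probes were picked by the study for a change in siNT cells, so high values of r are to some extent fixed by that choice. For Notumos the 5 highest were Tnnc2 (troponin C of fast skeletal muscle, r = 0.93), Lyl1 (a basic helix-loop-helix transcription factor, 0.90), Nacc2 (0.87), Daglb (a diacylglycerol lipase, 0.86) and Gnb4 (a G protein beta subunit, 0.86). Tnnc2 had mean log2 signals of 5.98 with siNT-DMSO, 4.46 with siNT-POVPC, 5.27 with siOCT4-DMSO and 4.90 with siOCT4-POVPC. The 3 lowest were a noncoding transcript at 4631405J19Rik (-0.88), Decr2 (a peroxisomal dienoyl-CoA reductase, -0.87) and Rp9 (-0.86).

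For Notum the 5 highest were Nanos3 (an RNA-binding protein of germ cells, r = 0.93), Trib1 (a pseudokinase, 0.88), Smpx (a small muscle protein, 0.88), Dnah9 (an axonemal dynein heavy chain, 0.88) and Upk2 (a uroplakin of urothelium, 0.87). Nanos3 had means of 7.57 with siNT-DMSO and of 6.90, 6.81 and 6.76 in siNT-POVPC, siOCT4-DMSO and siOCT4-POVPC. Like Notum, it was highest in siNT-DMSO with the other groups close together. Among the lowest were Erlin2 (a protein of endoplasmic reticulum rafts, -0.87) and the noncoding AK041646 (-0.86). Notumos is not among the named probes most like Notum, nor Notum among those most like Notumos. Over all 54440 probes with a value on every array, 10 had an r over 0.9 with Notum and 5 with Notumos. An r under -0.9 was found for 2 probes with Notum and for 0 with Notumos.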

How the data were processed

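Total RNA of 12 samples was hybridized to 1-colour Arraystar mouse LncRNA v4.0 arrays. The authors extracted spot intensity values with Agilent Feature Extraction 11.0.1.1, and the deposited log2 table was quantile normalized by them in GeneSpring GX. That table (column medians 6.37) correlated with the scanner values at r = 0.994 to 0.998. The deposited flag values for outlier spots and for spots well above background were used as given.

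From the scanner files, the processed signal was set to a floor of 5 after leaving out outlier spots, taken as log2 and quantile normalized in R 4.3.3 with limma 3.58.1. A probe was tested (54506 were) if at least 3 of the 12 arrays flagged it well above background, with lmFit and eBayes over all 4 groups and Benjamini-Hochberg adjustment. A call needed an adjusted p under 0.05 and a fold of at least 1.5. The script was tested on simulated data. Exact tests used SciPy. The number of arrays limits the precision, and no interval of counts applies to arrays. Transcript names, coordinates and the Notum probe came from the study's tables, which named 1155 probes and cover only transcripts picked for siNT-POVPC against siNT-DMSO. The fold and p values in those tables were not used, save to tie 1 probe to Notumos. The genome build of the array is not given in the sources used here, and no aligner applies.

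The pair, the gene lists and the tests were chosen with earlier results of these data known. Genes were named if they were of the pair, in the listed Wnt and marker genes, within 200 kb of Notum, or among the 5 named probes with the highest and the 3 with the lowest r to either transcript. One gene that this rule names is not reported here. The replicate numbers did not pair the arrays: deviations of same-numbered arrays correlated at -0.199 to 0.362, and 3 of 18 pairs were over 0.1. Alternatives were 75th percentile scaling, normexp (on the median signal), the authors' log2 values, a floor of 20, filters, models, a block for the scan, and leaving out each array.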

Additional observations from a re-analysis of the deposited data

How the results depend on the processing

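In siOCT4-POVPC against siOCT4-DMSO neither transcript passed the test under any alternative that gave a value. For Notumos this says little, as it reached the 3 arrays needed for testing only with siNT-DMSO arrays, on which it was chosen to be high. The log2 difference of Notumos was 0.008 with a floor of 20, -0.082 with normexp and -0.528 with 75th percentile scaling. It was -0.641 with no scaling and -0.877 with the scan as a block. When single arrays were left out it ran from -0.76 to 0.075. That of Notum ran from -0.071 to 0.265 when they were, and was -0.245 with 75th percentile scaling, -0.004 with normexp and -0.407 with no scaling between arrays, an alternative chosen after seeing the data. The count of called probes was 1 and became 21 with 75th percentile scaling, 1153 with no scaling, 6 with a floor of 20, 2 with no filter on dim probes, 3 by the methods' t-test after adjustment and 2990 before it, 5105 with the scan as a block and 15332 within the second scan, where the vehicle arm is siOCT4-DMSO 3 alone and is assumed to vary like the POVPC arrays. It was 0 with normexp, with probes well above background on all arrays (a filter neither transcript passed), with only the groups compared and with an intensity trend. With the replicate block it was 0, and the block changed no call on the pair, at -0.31 for Notumos and 0.06 for Notum; the numbers do not pair the arrays. With each array left out the count ran from 0 to 12. It was 12 without siNT-POVPC 3, 6 without siNT-DMSO 2, 4 without siOCT4-DMSO 1, 3 without siOCT4-DMSO 3, 2 without siOCT4-POVPC 1 or 2, and 0 without siOCT4-DMSO 2 or siOCT4-POVPC 3. Values without a test that moved by more than 1 SD between replicates are as follows. For siOCT4-DMSO against siNT-DMSO, Notum was -1.22 with 75th percentile scaling, -0.235 with normexp and -0.655 with a floor of 20. Notumos there went from -0.85 to -0.177 with normexp and -0.192 with a floor of 20, just under 1 SD. For siOCT4-POVPC against siNT-POVPC, where no array measured Notumos above background and its fitted values (0.37 as quantile normalized) are no measured difference, 75th percentile scaling gave -0.44 for Notumos and -0.79 for Notum, no scaling gave -0.757 and -1.16, and the scan as a block gave -0.483 for Notumos. For siNT-POVPC against siNT-DMSO, Notumos was -0.306 with normexp, -0.192 with a floor of 20 and -0.76 with no scaling, and Notum was -0.206 with normexp and -0.064 with no scaling. For the difference between the POVPC effects, the fitted value of Notumos, likewise no measured difference, went from 1.22 to 0.224 with normexp, 0.2 with a floor of 20 and 0.119 with no scaling, and Notum was 0.43 with 75th percentile scaling, 0.202 with normexp and -0.343 with no scaling. A higher floor and normexp with its offset of 50 draw dim signals together by construction. For the other settings the cause was not tested. Both probes lie near background, and signal over background limits every value given.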
